A study of Mus musculus with 6 samples.

Results

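The peroxisome proliferator-activated receptors (PPARs), the estrogen-related receptors (ERRs), the thyroid hormone receptors, their common partner RXR-alpha and the PGC-1 coactivators were followed in cardiomyocyte (CM) nuclei of young mice that expressed GFP or 1 of 2 forms of YAP. The 10 genes are *Ppara*, *Ppard*, *Rxra*, *Esrra*, *Esrrb*, *Esrrg*, *Ppargc1a*, *Ppargc1b*, *Thra* and *Thrb*. They were chosen by name as drivers of oxidative maturation and found in the count table by Ensembl identifier, as 10 of 54532 genes. All 10 passed the filter on low counts (a median log2 CPM over 1 in at least 1 group, where CPM is counts per 1000000 counts of the scaled library size), among 13323 genes that were tested.

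In YAP5SA overexpressing (OE) CMs, 5 of the 10 genes fell against GFP, namely *Ppargc1b*, *Esrra*, *Esrrb*, *Thra* and *Thrb*, by 1.62-fold to 2.68-fold. Of all genes tested, 9.18% were lower in this comparison. The 5 became 2 without GFP replicate 2 or without YAP5SA replicate 2, and 8 without YAP5SA replicate 1. None of the 10 rose, while 12.8% of all genes tested were higher. In RNA of bulk nuclei, fewer nuclei of a cell type and less RNA per nucleus cannot be told apart. *Ppargc1a*, *Ppargc1b*, *Esrra* and *Thra* were also lower in YAP5SA OE CMs than in YAP6SA OE CMs, where 5.68% of all genes tested were lower. *Esrra* and *Thra* were not called there without the batch term, nor was *Ppargc1a* in DESeq2. The log2 difference of *Ppargc1a* went from -1.55 to -0.73 without YAP6SA replicate 1. In YAP6SA OE CMs, none of the 10 genes passed the test against GFP, which 0.045% of all genes tested did. *Ppard* and *Rxra* passed it in none of the 3 comparisons, and the intervals of their log2 fold changes in all 3 lay between -0.63 and 0.66.

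Wildtype ICR mice of all 3 groups received 1e+11 viral genomes of an AAV9 vector under the skin at P6, and their hearts were taken at P9, 3 d later. The vector carried GFP, YAP5SA or YAP6SA behind the cardiac troponin T (cTnT) promoter, which drives expression in CMs, so the GFP controls carried virus as well. YAP is the effector of the Hippo pathway. In YAP5SA, serines that the LATS kinases phosphorylate are replaced by alanine, and YAP6SA has in addition a replaced serine that is needed to bind the TEAD factors, through which YAP reaches most of its DNA targets. CM nuclei were isolated through PCM-1, a protein at the envelope of CM nuclei, with antibody-coated beads. Libraries were made from poly-A RNA of these nuclei and keep no strand information. Each group had 2 libraries, 1 in batch 1 and 1 in batch 2, and the labels give 2 hearts for each virus without saying which heart or hearts made a library. P-values therefore measure the spread between these libraries.

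In the heart, PPARs switch on genes of fatty acid uptake and oxidation, ERRs switch on genes of the citric acid cycle and the respiratory chain, and thyroid hormone receptors act in the switch from fetal to adult contractile genes. PPARs and thyroid hormone receptors bind DNA as pairs with a retinoid X receptor (RXR), whereas ERRs bind without a known hormone. PGC-1 coactivators do not bind DNA themselves and are recruited by these receptors, and PGC-1 and ERR activity is known to rise after birth as the heart turns from glucose to fatty acids.

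The libraries held 14552847 to 19615627 counts on genes, and a gene with 0 counts could have had up to 3, or 0.153 to 0.199 CPM, which covers counting error alone. The 8 CM markers *Tnnt2*, *Myh6*, *Actn2*, *Ttn*, *Ryr2*, *Tnni3*, *Myl2* and *Pln* summed to 49538 and 66514 CPM in the GFP libraries, 47341 and 60881 CPM in YAP6SA and 41607 and 30348 CPM in YAP5SA (batch 1 before batch 2, as in all pairs of values here). The sums of 7 lists of other cell types (fibroblast, endothelial cell, macrophage, mural cell, adipocyte, erythroid cell, and Schwann cell or neuron) lay between 24.8 and 679 CPM, and no gene of these lists was at 0 in all libraries. In each of the GFP, YAP6SA and YAP5SA groups, the fibroblast sum was higher in batch 1 (518 to 679 CPM) than in batch 2 (349 to 396 CPM). So were the endothelial sum (582 to 677 and 457 to 471 CPM) and the adipocyte sum (91.4 to 142 and 65.7 to 103 CPM). The macrophage sum was lower in batch 1 (45.8 to 62.5 CPM) than in batch 2 (63.5 to 91.0 CPM) in each group. The remaining lists differed in direction between groups. In YAP5SA OE CMs against GFP, 1 of 5 tested macrophage genes and 1 of 2 tested adipocyte genes were higher. Of 6 tested mural cell genes, 1 was lower, and no tested gene of the remaining lists was called. Over all genes tested, 12.8% were higher and 9.18% lower. *Yap1* itself had 102 to 139 CPM and passed the test in none of the 3 comparisons (edgeR, lowest FDR 0.495). Whether reads of the viral cassettes are counted on *Yap1* was not tested.

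The sequences around the transcription starts of the genes show which of them hold the elements that these factors bind. RefSeq windows of GRCm38.p6, from 250 bases before to 50 bases after a start, were matched by symbol for 8 of the 10 genes, in 14 windows. AGGTCA, the core element of nuclear receptors, was found on either strand in 2 of the 14 windows, in *Thrb* and *Rxra*, against 16.3% of all 32851 windows. TNAAGGTCA, the extended element of ERRs, which contains AGGTCA, was in 0 of the 14, against 1.28% of all windows. GGAATG, the core of the TEAD element, was in 2, in *Esrrg* and *Thrb*, against 14.7%. Of the windows printed here, those of *Esrra* and *Ppargc1a* belong to the most abundant receptor and to the coactivator whose libraries differed most, and hold none of the 3 elements. The *Thrb* windows hold AGGTCA in one and GGAATG in the other, and that of *Rxra* holds AGGTCA on both strands. *Ucp3*, an uncoupling protein of muscle mitochondria, is a PPAR target that is shown because its window holds AGGTCA at 2 places. AGGTCA was in 8 of the 31 windows of PPAR targets, so that of *Ucp3* does not stand for the list. Matches are in capitals, and all windows are written along the gene's own strand.
Esrra, chr19:6921759-6922058, minus strand: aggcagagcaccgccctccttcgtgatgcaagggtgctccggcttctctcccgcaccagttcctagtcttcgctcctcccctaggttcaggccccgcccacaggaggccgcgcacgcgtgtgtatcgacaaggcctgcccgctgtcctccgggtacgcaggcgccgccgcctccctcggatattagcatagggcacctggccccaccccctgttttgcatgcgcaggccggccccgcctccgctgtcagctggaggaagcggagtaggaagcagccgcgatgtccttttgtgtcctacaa
Ppargc1a, chr5:51567676-51567975, minus strand: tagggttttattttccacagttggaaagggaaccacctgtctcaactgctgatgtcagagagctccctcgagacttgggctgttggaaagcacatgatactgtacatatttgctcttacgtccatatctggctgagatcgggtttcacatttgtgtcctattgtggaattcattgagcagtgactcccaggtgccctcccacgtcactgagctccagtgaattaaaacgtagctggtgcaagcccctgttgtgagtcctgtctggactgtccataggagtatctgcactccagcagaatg
Thrb, upstream start, chr14:17660710-17661009, plus strand: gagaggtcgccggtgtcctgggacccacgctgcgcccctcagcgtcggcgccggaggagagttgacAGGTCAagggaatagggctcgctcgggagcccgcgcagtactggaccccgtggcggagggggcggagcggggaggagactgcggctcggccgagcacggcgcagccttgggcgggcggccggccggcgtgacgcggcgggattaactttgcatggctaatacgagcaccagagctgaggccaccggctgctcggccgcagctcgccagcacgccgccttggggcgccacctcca
Thrb, downstream start, chr14:17981394-17981693, plus strand: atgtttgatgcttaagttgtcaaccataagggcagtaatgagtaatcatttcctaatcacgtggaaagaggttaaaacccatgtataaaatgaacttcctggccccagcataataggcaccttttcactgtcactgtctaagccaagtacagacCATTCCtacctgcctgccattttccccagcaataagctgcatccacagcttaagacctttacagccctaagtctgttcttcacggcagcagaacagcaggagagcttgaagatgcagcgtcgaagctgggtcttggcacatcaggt
Rxra, downstream start, chr2:27709042-27709341, plus strand: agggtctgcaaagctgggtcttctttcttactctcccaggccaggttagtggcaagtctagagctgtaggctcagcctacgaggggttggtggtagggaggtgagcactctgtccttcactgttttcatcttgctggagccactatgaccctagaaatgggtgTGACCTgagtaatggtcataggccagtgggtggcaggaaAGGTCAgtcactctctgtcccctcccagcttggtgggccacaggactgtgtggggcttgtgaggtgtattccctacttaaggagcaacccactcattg
Ucp3, chr7:100472741-100473040, plus strand: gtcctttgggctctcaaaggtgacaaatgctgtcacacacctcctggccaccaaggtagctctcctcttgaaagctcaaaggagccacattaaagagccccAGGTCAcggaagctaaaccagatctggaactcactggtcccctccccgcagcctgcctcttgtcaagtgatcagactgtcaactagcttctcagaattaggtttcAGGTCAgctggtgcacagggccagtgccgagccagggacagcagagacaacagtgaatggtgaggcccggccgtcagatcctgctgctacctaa

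Counted from the start of transcription, AGGTCA began at -184 in the upstream *Thrb* window, at -87 and -48 in that of *Rxra*, and at -149 and -44 in that of *Ucp3*. GGAATG began at -96 in the downstream *Thrb* window, where it lies on the other strand and reads CATTCC. Of the 2 genes that hold AGGTCA, *Thrb* fell in YAP5SA OE CMs and *Rxra* did not pass the test. A match is a description of the letters, and no binding was measured.

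**Figure D1:**
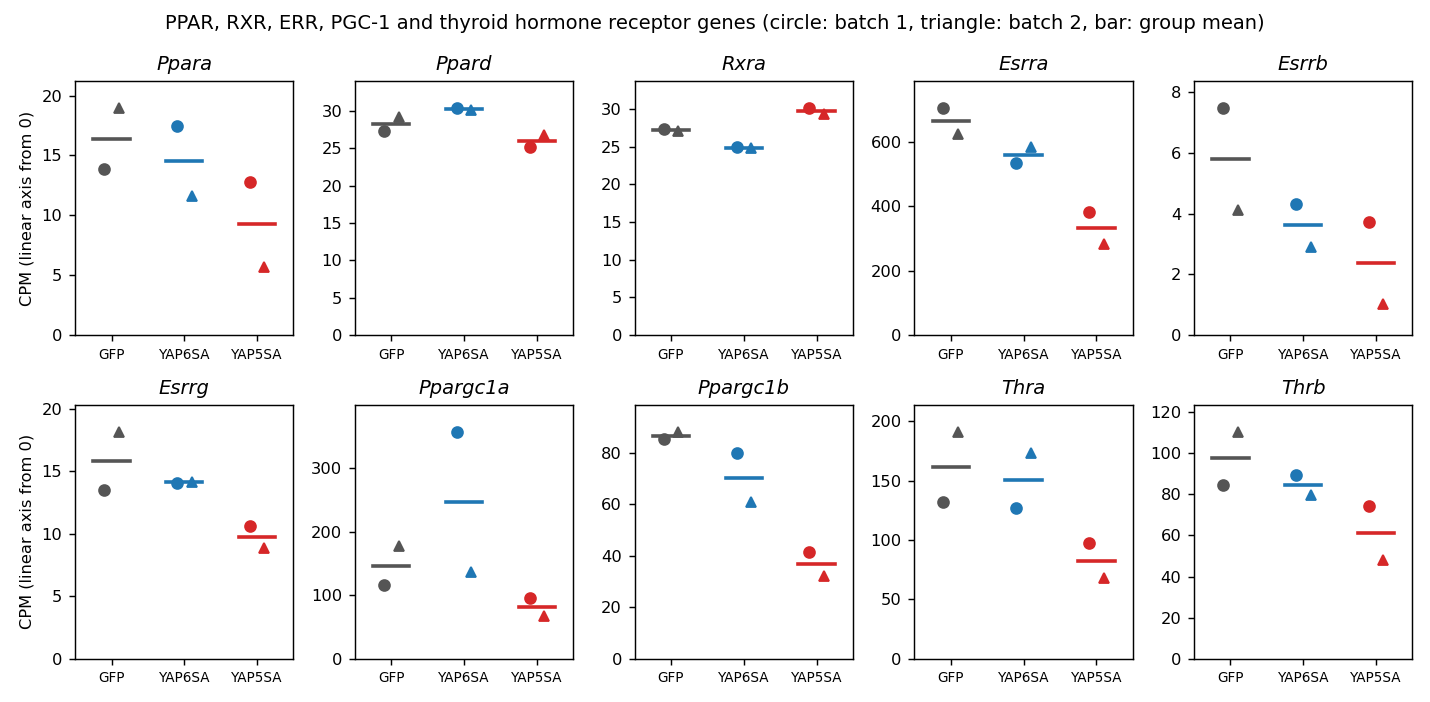
CPM of each of the 10 genes in each library, on linear axes that start at 0, with batch 1 as a circle, batch 2 as a triangle and the group mean as a bar. Both YAP5SA libraries lie below both GFP libraries for 9 genes and above them for *Rxra*, while 1 YAP6SA library of *Ppargc1a* stands at 357 CPM.

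PPARs and RXR-alpha were at low to moderate levels. *Ppara* (ENSMUSG00000022383, chromosome 15 of GRCm38, 85734983 to 85802819, plus strand) encodes the PPAR that drives fatty acid oxidation in the heart. Its counts were 264 and 290 in the GFP libraries, 343 and 192 in YAP6SA and 193 and 102 in YAP5SA. Expression was 16.4 ± 3.58 CPM in GFP (mean ± SD, n = 2 libraries, as for all such values), 14.5 ± 4.11 CPM in YAP6SA OE CMs and 9.25 ± 5.0 CPM in YAP5SA OE CMs. Both YAP5SA libraries were below both GFP libraries, but the 2 YAP5SA libraries differed from each other more than the means of GFP and YAP6SA did. The log2 fold change of YAP5SA against GFP was -0.92 (SE 0.35, 95% interval -1.71 to -0.14), with -0.12 within batch 1 and -1.71 within batch 2, and it missed the threshold (edgeR quasi-likelihood test with Benjamini-Hochberg adjustment over all genes tested, FDR 0.0888, against a threshold of 0.05). It passed without GFP replicate 1 (-1.55, FDR 0.0133) or without YAP5SA replicate 1 (-1.48, FDR 0.00241), and with no filter on low counts (FDR 0.00788). Without GFP replicate 2 it was -0.26 and without YAP5SA replicate 2 it was -0.38. YAP6SA differed from GFP by -0.23 (interval -1.0 to 0.53, FDR 0.947), and YAP5SA from YAP6SA by -0.69 (FDR 0.210).

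*Ppard* (ENSMUSG00000002250, chromosome 17, 28232700 to 28301474, plus strand), a PPAR found in most tissues, had 519 and 448 counts in GFP, 597 and 497 in YAP6SA and 380 and 478 in YAP5SA. Its means were 28.3 ± 1.39 CPM, 30.3 ± 0.170 CPM and 26.0 ± 1.14 CPM in GFP, YAP6SA OE and YAP5SA OE CMs. The groups did not overlap, and all 6 libraries lay between 25.2 and 30.4 CPM. Against GFP the log2 fold change was -0.12 in YAP5SA OE CMs (95% interval -0.53 to 0.28, edgeR FDR 0.671) and 0.10 in YAP6SA OE CMs (interval -0.31 to 0.50, FDR 0.952). Between YAP5SA and YAP6SA it was -0.22 (interval -0.63 to 0.19, FDR 0.453).

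*Rxra* (ENSMUSG00000015846, chromosome 2, 27676440 to 27762957, plus strand), the shared partner of PPARs and thyroid hormone receptors, had 520 and 414 counts in GFP, 489 and 410 in YAP6SA and 454 and 524 in YAP5SA. It was at 27.2 ± 0.215 CPM in GFP, 24.9 ± 0.0146 CPM in YAP6SA OE CMs and 29.7 ± 0.499 CPM in YAP5SA OE CMs. Among the 10 genes it was the one whose YAP5SA libraries were above both GFP libraries. The log2 fold change of YAP5SA was 0.13 against GFP (95% interval -0.28 to 0.54, edgeR FDR 0.651) and 0.26 against YAP6SA (interval -0.15 to 0.66, FDR 0.378), and that of YAP6SA against GFP was -0.13 (FDR 0.947). None passed the threshold, although the groups did not overlap.

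The ERRs were led by *Esrra*, which took 97.4% to 98.0% of the family's CPM per kilobase of exon in each library. *Esrra* (ENSMUSG00000024955, chromosome 19, 6910977 to 6921813, minus strand) encodes ERR-alpha, a regulator of mitochondrial energy genes. Its counts were 13378 and 9530 in GFP, 10489 and 9622 in YAP6SA and 5782 and 5022 in YAP5SA, or 663 ± 57.3, 558 ± 35.2 and 332 ± 71.8 CPM. Both YAP5SA libraries were below every library of the other groups. The log2 fold change of YAP5SA was -1.0 against GFP (SE 0.19, 95% interval -1.42 to -0.59, edgeR FDR 0.00555), a 2.01-fold fall, with -0.88 within batch 1 and -1.14 within batch 2. Against YAP6SA it was -0.77 (interval -1.18 to -0.35, FDR 0.0235), and YAP6SA differed from GFP by -0.24 (interval -0.65 to 0.17, FDR 0.908). The fall against GFP was called in all 8 alternative fits and with each library left out, from -0.79 to -1.21. The fall against YAP6SA was lost without YAP6SA replicate 1 (-0.98, FDR 0.0571), without YAP6SA replicate 2 (-0.54, FDR 0.450), without YAP5SA replicate 2 (-0.54, FDR 0.0561) and without the batch term (FDR 0.0552). Of its 4387 exon bases, 3.74% are shared with *Trmt112* on the opposite strand or with *Mir6990*.

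*Esrrb* (ENSMUSG00000021255, chromosome 12, 86361117 to 86521628, plus strand), the ERR known from stem cells and the placenta, was the least abundant of the 10 genes. It had 142 and 63 counts in GFP, 85 and 48 in YAP6SA and 56 and 18 in YAP5SA, or 5.79 ± 2.37, 3.62 ± 1.00 and 2.36 ± 1.91 CPM. Every YAP5SA library was below both GFP libraries, while YAP6SA overlapped both other groups. The fall in YAP5SA OE CMs was -1.42 against GFP (SE 0.44, 95% interval -2.41 to -0.43, edgeR FDR 0.0459), close to the threshold. The call was lost without GFP replicate 1 (-1.59, FDR 0.142), GFP replicate 2 (-1.29, FDR 0.239), YAP6SA replicate 1 (-1.46, FDR 0.0526) or YAP5SA replicate 2 (-0.93, FDR 0.224). It was also lost without the batch term (FDR 0.164) and in a fit of the 4 libraries compared (FDR 0.0511). YAP6SA differed from GFP by -0.64 (interval -1.60 to 0.32, FDR 0.902), and YAP5SA from YAP6SA by -0.78 (FDR 0.273).

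*Esrrg* (ENSMUSG00000026610, chromosome 1, 187608791 to 188214885, plus strand) encodes ERR-gamma, known for its part in the perinatal metabolic switch of the heart. It had 257 and 278 counts in GFP, 277 and 234 in YAP6SA and 161 and 158 in YAP5SA, or 15.8 ± 3.28, 14.1 ± 0.0668 and 9.76 ± 1.28 CPM. Both YAP5SA libraries were below all other libraries. The log2 fold change against GFP was -0.69 (SE 0.26, 95% interval -1.27 to -0.12) and missed the threshold (edgeR FDR 0.0814), as did -0.53 against YAP6SA (FDR 0.191). Without YAP5SA replicate 1 it was -0.92 against GFP and passed (FDR 0.0198). YAP6SA differed from GFP by -0.16 (interval -0.72 to 0.41, FDR 0.947).

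Among the coactivators, *Ppargc1b* fell in YAP5SA OE CMs, and *Ppargc1a* had the widest range between libraries of the pair. *Ppargc1a* (ENSMUSG00000029167, chromosome 5, 51454250 to 51567726, minus strand) encodes PGC-1-alpha, which is known to be induced by cold, fasting and exercise. Its counts were 2209 and 2711 in GFP, 7011 and 2253 in YAP6SA and 1435 and 1190 in YAP5SA. In CPM these were 116 and 177, 357 and 137, and 95.1 and 66.7, with means of 147 ± 43.1, 247 ± 156 and 80.9 ± 20.1 CPM. YAP6SA replicate 1 was above every other library, YAP6SA replicate 2 lay between the GFP libraries, and both YAP5SA libraries were below all others. Against YAP6SA, the gene was 2.93-fold lower in YAP5SA OE CMs (log2 -1.55, SE 0.36, 95% interval -2.34 to -0.76, edgeR FDR 0.0187), with -1.91 within batch 1 and -1.03 within batch 2. Without YAP6SA replicate 1 the difference was -0.73 and was not called (FDR 0.175), and DESeq2 gave an FDR of 0.102.

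Against GFP, *Ppargc1a* differed by -0.94 in YAP5SA OE CMs (SE 0.35, 95% interval -1.73 to -0.15, edgeR FDR 0.0846), which missed the threshold, with -0.29 within batch 1 and -1.41 within batch 2. This difference passed without GFP replicate 1 (-1.60, FDR 0.00124), YAP6SA replicate 1 (-0.85, FDR 0.0216), YAP6SA replicate 2 (-0.85, FDR 0.0249) or YAP5SA replicate 1 (-0.98, FDR 0.0343). It also passed in the fit of the 4 libraries compared (FDR 0.0241) and with no filter (FDR 3.39e-06). Without GFP replicate 2 it was -0.05. YAP6SA against GFP was 0.61 (interval -0.19 to 1.41, FDR 0.874), with 1.62 within batch 1 and -0.37 within batch 2. Without YAP6SA replicate 1 it was -0.12 and without GFP replicate 1 it was -0.14, so leaving out either of these libraries turned its sign.

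*Ppargc1b* (ENSMUSG00000033871, chromosome 18, 61298136 to 61400431, minus strand), the close relative that encodes PGC-1-beta, had the lowest FDR of the 10 genes in YAP5SA OE CMs against GFP. Its counts were 1624 and 1350 in GFP, 1572 and 1003 in YAP6SA and 624 and 574 in YAP5SA, or 86.8 ± 1.96, 70.4 ± 13.6 and 36.8 ± 6.48 CPM. The 3 groups did not overlap, with YAP6SA between GFP and YAP5SA. YAP5SA OE CMs were 2.39-fold below GFP (log2 -1.25, SE 0.17, 95% interval -1.63 to -0.88, edgeR FDR 0.00120), with -1.04 and -1.45 within the batches. This call was made in all 8 alternative fits and with each library left out, from -1.04 to -1.45. Against YAP6SA the fall was -0.94 (interval -1.31 to -0.56, FDR 0.00621), with -0.95 and -0.92 within the batches, and it was lost without YAP6SA replicate 1 (-0.81, FDR 0.0593). YAP6SA against GFP was -0.32 (interval -0.68 to 0.05, FDR 0.842).

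Per kilobase of exon, the ratio of *Ppargc1a* to *Ppargc1b* was 0.823 and 1.22 in GFP, 2.70 and 1.36 in YAP6SA and 1.39 and 1.25 in YAP5SA. The GFP library of batch 1 was the one in which *Ppargc1b* was the more abundant of the pair. The counts are per gene, and the promoters and splice forms of *Ppargc1a* were not told apart.

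Both thyroid hormone receptor genes fell in YAP5SA OE CMs against GFP. *Thra* (ENSMUSG00000058756, chromosome 11, 98740638 to 98769006, plus strand), the main thyroid hormone receptor gene of the heart, had 2516 and 2925 counts in GFP, 2497 and 2864 in YAP6SA and 1475 and 1207 in YAP5SA. Its means were 162 ± 41.5, 150 ± 33.0 and 82.7 ± 21.3 CPM. Both YAP5SA libraries were below all others, while GFP and YAP6SA overlapped. The fall was -0.94 against GFP (SE 0.24, 95% interval -1.47 to -0.41, edgeR FDR 0.0204), with -0.44 within batch 1 and -1.50 within batch 2. Against YAP6SA it was -0.84 (interval -1.37 to -0.31, FDR 0.0410), and YAP6SA against GFP was -0.10 (interval -0.62 to 0.42, FDR 0.963). The call against GFP was made in all 8 alternative fits, but was lost without GFP replicate 2 (-0.66, FDR 0.200) or YAP5SA replicate 2 (-0.44, FDR 0.0788). The call against YAP6SA was lost without YAP6SA replicate 2 (-0.62, FDR 0.334), YAP5SA replicate 2 (-0.34, FDR 0.226) or the batch term (FDR 0.0622). The gene shares 263 of 4614 exon bases, 5.70%, with *Nr1d1* on the opposite strand, which had 16.1 to 29.6 CPM. Its hormone-binding and non-binding splice forms are counted as 1 gene.

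*Thrb* (ENSMUSG00000021779, chromosome 14, 17660261 to 18038090, plus strand), the second receptor gene, had 1611 and 1689 counts in GFP, 1754 and 1316 in YAP6SA and 1121 and 859 in YAP5SA, or 97.5 ± 18.1, 84.5 ± 6.68 and 61.2 ± 18.5 CPM. Both YAP5SA libraries were below all others. It fell by 0.69 on the log2 scale against GFP (SE 0.22, 95% interval -1.17 to -0.21, edgeR FDR 0.0447), with -0.19 within batch 1 and -1.19 within batch 2, and differed from YAP6SA by -0.48 (FDR 0.163). YAP6SA differed from GFP by -0.22 (interval -0.69 to 0.26, FDR 0.929). The call was lost without GFP replicate 2 (-0.30, FDR 0.560), YAP5SA replicate 2 (-0.32, FDR 0.304) or the batch term (FDR 0.0727). Without YAP5SA replicate 1, the difference from YAP6SA was -0.86 and passed (FDR 0.00197).

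**Figure D2:**
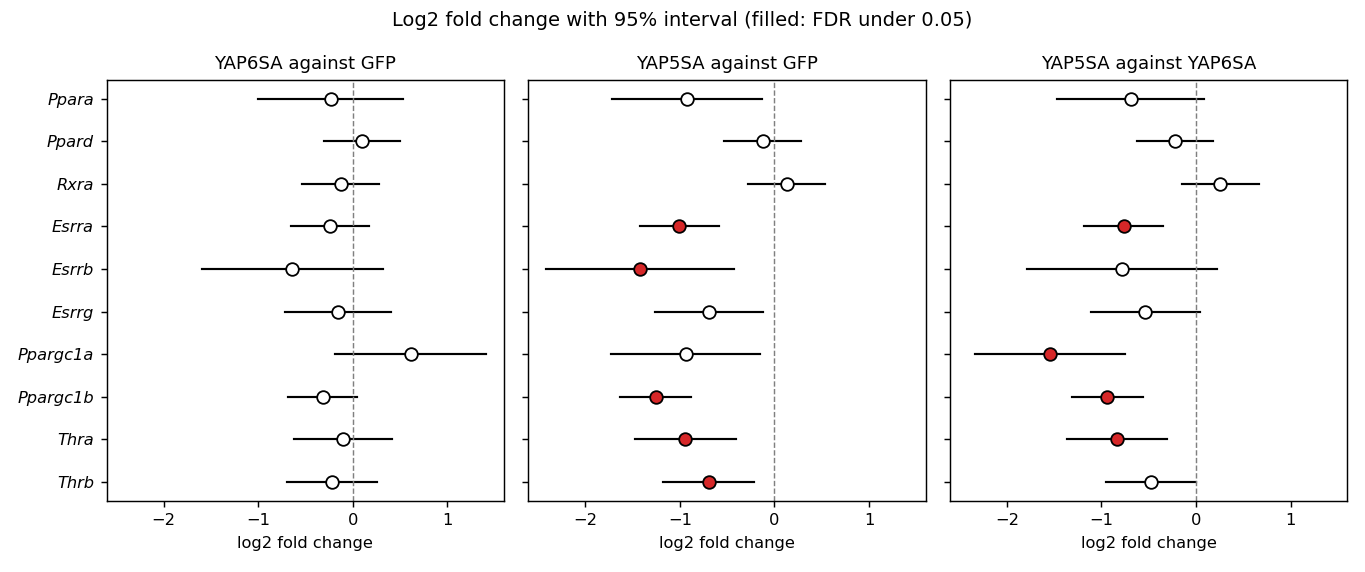
Log2 fold change of each gene in the 3 comparisons (x axis), with its 95% interval as a line and a filled point where the FDR was under 0.05. There are 0 filled points for YAP6SA against GFP, 5 for YAP5SA against GFP and 4 for YAP5SA against YAP6SA, all on the lower side.

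In the comparison of YAP5SA with GFP, 5 of the 10 genes passed the threshold as lower, where 9.18% of all genes tested did, and 0 as higher, where 12.8% did (22% of all genes tested in either direction). At an unadjusted p under 0.05 there were 8 of the 10, and 36.4% of all genes tested. The libraries did not overlap and were lower for 9 genes, against 29.7% of all genes tested, and higher for 1, against 31.2%. The median log2 fold change was -0.93 over the 10 genes and -0.0031 over all genes tested. For YAP5SA against YAP6SA, 4 were called lower (5.68% of all genes tested) and 0 higher (9% of all), with medians of -0.73 and -0.013. For YAP6SA against GFP, 0 were called lower (0% of all) and 0 higher (0.045% of all), and 0 had an unadjusted p under 0.05 in edgeR, DESeq2 or limma-voom (5.93% of all in edgeR). The first and the last comparison share the GFP libraries, the first 2 share the YAP5SA libraries, and the last 2 share the YAP6SA libraries.

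The number called in YAP5SA OE CMs against GFP rested on single libraries. It was 2 without GFP replicate 2, 2 without YAP5SA replicate 2, 6 without GFP replicate 1 or YAP6SA replicate 2, and 8 without YAP5SA replicate 1. *Ppargc1b* and *Esrra* were called in each of these. Against YAP6SA it was 1 without YAP6SA replicate 1, 2 without YAP6SA replicate 2, 2 without YAP5SA replicate 2 and 6 without YAP5SA replicate 1. Without the batch term it was 3 against GFP and 2 against YAP6SA.

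**Figure D3:**
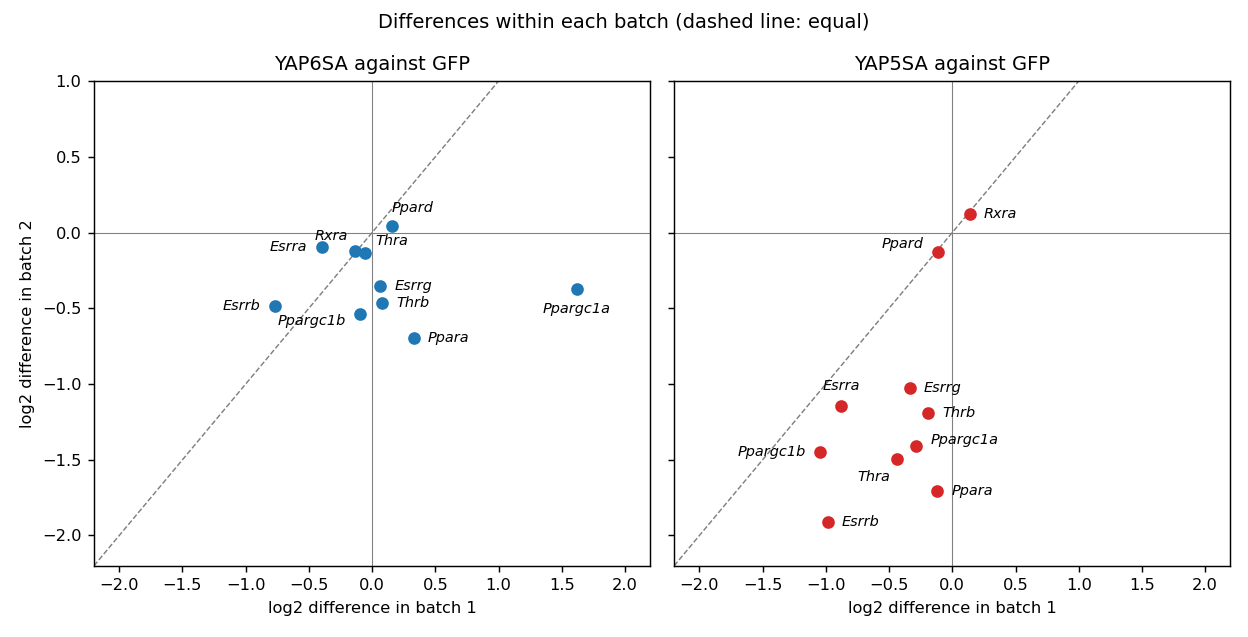
Log2 difference from GFP within batch 1 (x axis) and batch 2 (y axis) for each gene, in YAP6SA at the left and YAP5SA at the right, with equal values on the dashed line. In YAP5SA, 9 genes lie below 0 on both axes and below the line, and in YAP6SA *Ppargc1a* lies at 1.62 and -0.37.

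The differences of YAP5SA from GFP were larger in batch 2 than in batch 1 for all 9 genes with a lower level, though barely for *Ppard* (-0.116 and -0.126). All 9 were measured in the same 4 libraries. The share over all genes tested was not counted, so this is not shown to be particular to these genes. The steepest contrasts were those of *Ppara*, *Ppargc1a*, *Thra* and *Thrb*. The sum of the 8 CM markers also differed more in batch 2 (66514 CPM in GFP and 30348 CPM in YAP5SA) than in batch 1 (49538 and 41607 CPM). Of this sum, *Myh6*, itself a thyroid hormone target, held 28041 and 8669 CPM in batch 2 and 17905 and 13091 CPM in batch 1. All 8 markers had a negative log2 fold change, as did 6696 of all 13323 genes tested. The median of the 8 was -0.76, and 2 passed the test, *Pln* and *Ryr2*. The part of the CM marker level in the result on the 10 genes was not tested. No gene of the 10 passed the test for the batch term itself, with a lowest FDR of 0.302 for *Esrrb*.

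Levels between genes were compared per kilobase of exon. In GFP the order was *Esrra* (151 CPM per kilobase), *Thra* (35), *Ppargc1a* (22.2), *Ppargc1b* (21.7), *Thrb* (13.2), *Rxra* (4.98), *Ppara* (4.28), *Ppard* (3.76), *Esrrg* (2.55) and *Esrrb* (0.957). The libraries of *Ppargc1a* and *Ppargc1b* overlapped, as did those of *Ppara* and *Ppard*, so neither pair was ordered beyond its spread. In YAP6SA *Ppargc1a* (37.4 CPM per kilobase) came before *Thra* (32.6), with overlapping libraries, and *Ppard* (4.03) came before *Ppara* (3.79), also overlapping. In YAP5SA the order ran from *Esrra* (75.7 CPM per kilobase) through *Thra* (17.9), *Ppargc1a* (12.3), *Ppargc1b* (9.21), *Thrb* (8.27), *Rxra* (5.44), *Ppard* (3.46), *Ppara* (2.41) and *Esrrg* (1.57) to *Esrrb* (0.390). There *Ppargc1a* and *Ppargc1b* overlapped, as did *Ppargc1b* and *Thrb*, and *Ppara* and *Esrrg*.

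**Figure D4:**
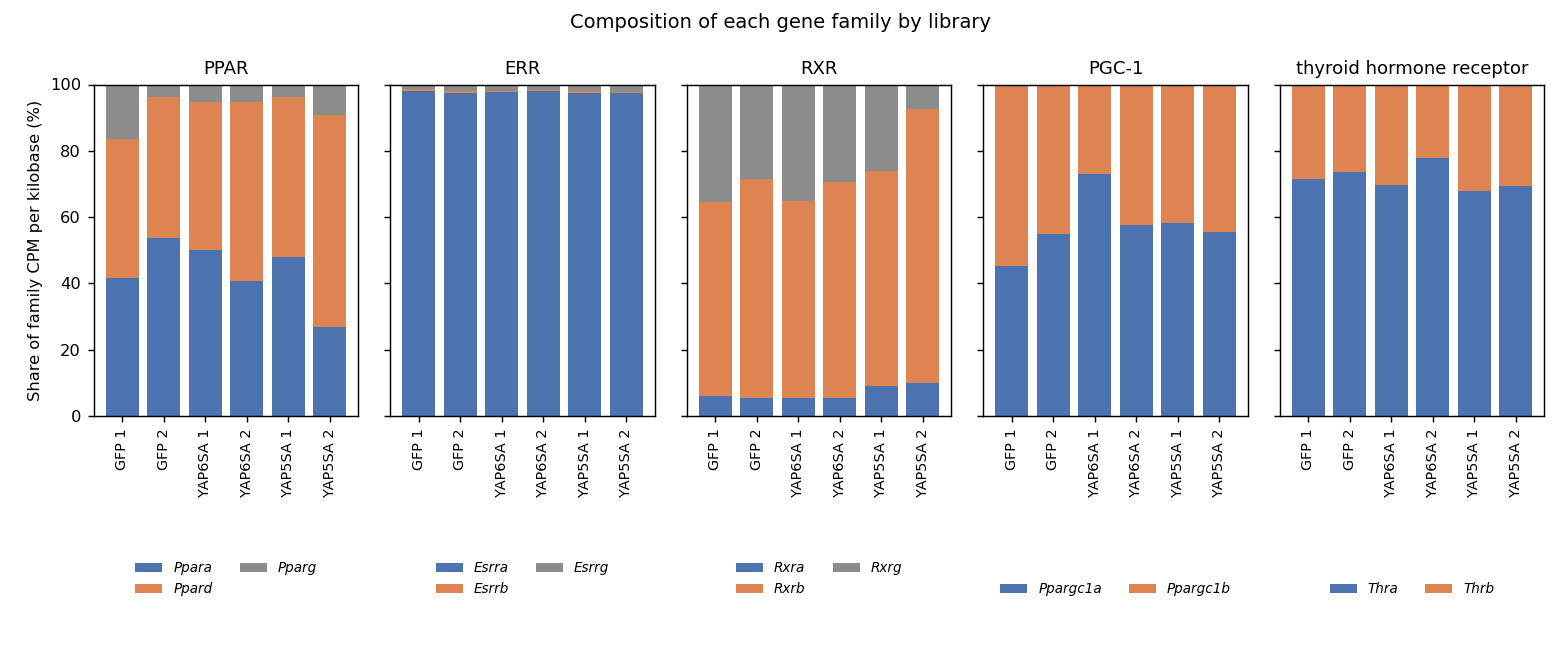
Share of each gene in its family's summed CPM per kilobase of exon (y axis, percent) in each of the 6 libraries, as stacked bars with *Pparg*, *Rxrb* and *Rxrg* added to complete the families. *Esrra* fills 97.4% to 98.0% of the ERR bars, and *Rxra* takes 5.37% to 6.10% of RXR in GFP and YAP6SA and 9.05% and 10.0% in YAP5SA.

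Within families, *Thra* held 67.9% to 77.7% of the thyroid hormone receptor signal and *Ppara* 26.8% to 53.8% of the PPAR signal, with its lowest share in YAP5SA replicate 2. *Rxra* was the smallest member of the RXR family in 5 libraries, and its share was higher in YAP5SA than in the other groups. *Rxrg*, the RXR known from muscle, went from 66.9 and 59.9 CPM in GFP and 67.2 and 57.3 CPM in YAP6SA to 36.3 and 9.19 CPM in YAP5SA, and *Rxrb* had 157 to 239 CPM in all libraries. Shares within a family depend on all its members, and a test of them was not made.

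The wider pathway was described with 9 lists of 147 genes, of which 142 were tested. In YAP5SA OE CMs, 40 were lower and 6 higher than in GFP (9.18% and 12.8% of all genes tested), and the median over the lists was -0.37 on the log2 scale. In YAP6SA OE CMs 0 passed in either direction (0.045% of all genes tested), and 18 had an unadjusted p under 0.05 (5.93% of all genes tested). The lists were compiled from general knowledge of the pathway, with earlier results of these data known. Leaving out 1 library moved the 46 calls of YAP5SA against GFP to 29 without GFP replicate 1, 13 without GFP replicate 2 and 73 without YAP5SA replicate 1. YAP5SA against YAP6SA gave 33 lower and 5 higher genes (5.68% and 9% of all genes tested), and the 38 calls became 18 without YAP6SA replicate 1, 3 without YAP6SA replicate 2, 25 without YAP5SA replicate 2 and 76 without YAP5SA replicate 1.

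**Figure D5:**
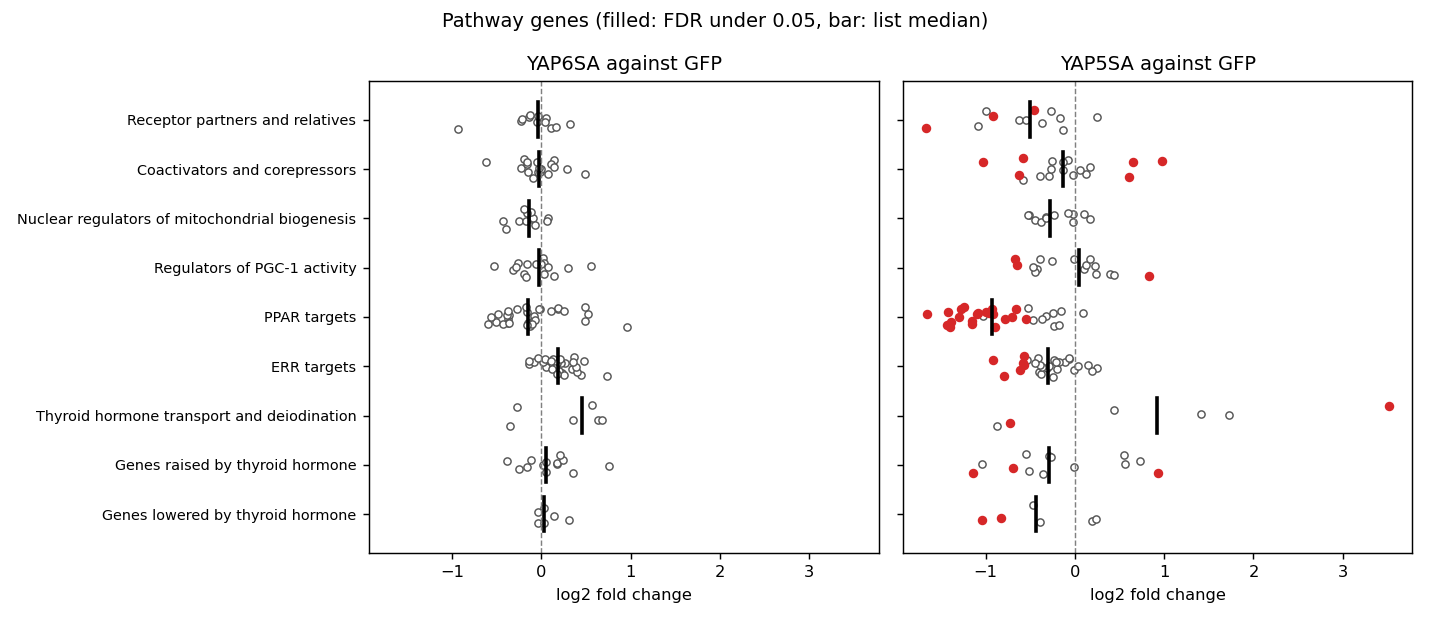
Log2 fold change against GFP (x axis) of the tested genes of each of the 9 lists (rows), in YAP6SA at the left and YAP5SA at the right, with filled points for an FDR under 0.05 and a bar for the list's median. The PPAR target list has 21 filled points in YAP5SA, all below 0, and no list has a filled point in YAP6SA.

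Targets of PPAR were the list with the most calls. Over all genes tested, 9.18% were lower and 12.8% higher in YAP5SA OE CMs than in GFP. Against YAP6SA these shares were 5.68% and 9%. Of 31 tested, 21 fell in YAP5SA OE CMs and 0 rose, with a median of -0.93, and 11 fell when GFP replicate 2 was left out. Those with the largest falls were *Acot1*, a cytosolic thioesterase that frees fatty acids from CoA (-1.66, edgeR FDR 0.0101), *Mlycd*, which removes the malonyl-CoA that blocks fatty acid entry into mitochondria (-1.43, FDR 0.000564), *Ucp3* (-1.43, FDR 0.00176) and *Acsl1*, which activates fatty acids (-1.40, FDR 0.00233). *Mlycd* had 218 and 175 CPM in GFP, 147 and 154 CPM in YAP6SA and 80.0 and 66.0 CPM in YAP5SA. *Ucp3* had 563 and 659, 325 and 515, and 236 and 213 CPM in the same order. *Acsl1* had 665 and 685, 431 and 463, and 321 and 199 CPM. In all of these genes except *Acot1*, YAP6SA lay between GFP and YAP5SA without overlap. Over all genes tested, YAP6SA was below GFP without overlap in 17%, and YAP5SA was below YAP6SA without overlap in 28.9%. These genes were picked for their falls in YAP5SA against GFP, and the share of all genes with both orders was not counted. *Acot1* was not called without GFP replicate 1 (-0.90, FDR 0.126), and it has close copies with which it may share reads. Against YAP6SA, 16 were lower and 0 higher, with 11 lower without YAP6SA replicate 1, 2 without YAP6SA replicate 2 and 8 without the batch term. In YAP6SA OE CMs, 11 of the 31 had an unadjusted p under 0.05 against GFP, where 5.93% of all genes tested did. None passed the adjusted threshold in the main edgeR fit, which 0.045% of all genes tested did. In the edgeR fit of the 4 libraries compared, 4 were lower and 2 higher, where 78 and 198 of all 13323 genes tested were. With no filter on low counts 1 was higher. The median in the main fit was -0.15, and it was 0.088 without YAP6SA replicate 1 and -0.43 without YAP6SA replicate 2. AGGTCA was in 25.8% of the 31 RefSeq windows of PPAR targets and in 22.6% of the 31 windows of ERR targets, against 16.3% of all windows. These windows cover 26 of 32 PPAR targets and 22 of 28 ERR targets. TNAAGGTCA was in 0 windows of PPAR targets and 1 of ERR targets, against 1.28% of all windows. GGAATG was in 16.1% and 0%, against 14.7%.

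ERR targets, genes of the citric acid cycle, the respiratory chain and creatine kinase, had fewer calls. The shares over all genes tested were 9.18% lower and 12.8% higher against GFP, and 5.68% and 9% against YAP6SA. Of 28 tested, 6 fell in YAP5SA OE CMs against GFP and 0 rose, with a median of -0.30. Without GFP replicate 2 none was called (median -0.12), without GFP replicate 1, YAP6SA replicate 1, YAP6SA replicate 2 or YAP5SA replicate 2, or without the batch term, 2 were, and without YAP5SA replicate 1 there were 13. Among those that fell were *Ogdh*, an enzyme of the citric acid cycle (-0.92, edgeR FDR 0.0121), *Ndufv1*, a subunit of complex I (-0.62, FDR 0.0350), and *Ckmt2*, the mitochondrial creatine kinase of muscle (-0.58, FDR 0.0335). *Ogdh* had 793 and 905 CPM in GFP, 926 and 750 CPM in YAP6SA and 535 and 378 CPM in YAP5SA. Its GFP and YAP6SA libraries overlapped, and both YAP5SA libraries were lower. Without GFP replicate 2 the call of *Ogdh* (-0.62) was lost. *Ndufv1* was called in 1 and *Ckmt2* in 1 of the 6 fits that leave out a library, with values from -0.39 to -0.83 and from -0.45 to -0.71. Neither was called without the batch term (FDR 0.0628 and 0.114) or in the fit of the 4 libraries compared (FDR 0.0741 and 0.0763). Against YAP6SA, 9 of 28 were lower and 0 higher, and all 28 had a negative log2 fold change, with a median of -0.45. Of all 13323 genes tested, 6801 had a negative one. The 28 values come from the same libraries, so their signs are not independent. The 9 became 0 without YAP6SA replicate 1 or YAP6SA replicate 2, 3 without YAP5SA replicate 2, 6 without GFP replicate 1, 21 without YAP5SA replicate 1 and 1 without the batch term. In YAP6SA OE CMs against GFP, 4 of the 28 had a negative log2 fold change, with a median of 0.18. Of all 13323 genes tested, 6626 had a negative one. There were 0 calls in the main edgeR fit (0.045% of all genes tested), and 3 genes had an unadjusted p under 0.05 (5.93% of all). The edgeR fit of the 4 libraries compared called 2 higher, and that with no filter 1 higher.

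Receptor partners and relatives held 3 lower and 0 higher genes of 12, with 0 lower without GFP replicate 2, 1 without YAP5SA replicate 2 or the batch term, 2 without either YAP6SA replicate and 5 without YAP5SA replicate 1. The shares over all genes tested were 9.18% lower and 12.8% higher. *Rxrg* fell by 1.67 on the log2 scale (edgeR FDR 0.0120), and *Nr3c1*, the glucocorticoid receptor, reached -0.45 (FDR 0.0484). *Rxrg* was not called without GFP replicate 2 (-1.26, FDR 0.0626), in DESeq2 (FDR 0.0576) or without the batch term (FDR 0.0588). *Nr3c1* was called in 3 of the 8 alternative fits and in 1 of the 6 that leave out a library, from -0.42 to -0.48.

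Coactivators and corepressors held 3 lower and 3 higher genes of 18, beside 9.18% and 12.8% of all genes tested. Lower and higher genes numbered 0 and 1 without GFP replicate 2, 2 and 1 without GFP replicate 1, 5 and 3 without YAP5SA replicate 1 and 1 and 3 without YAP5SA replicate 2. *Pprc1*, the third PGC-1 relative, rose from 45.4 and 43.0 CPM in GFP to 75.3 and 98.9 CPM in YAP5SA (log2 0.97, edgeR FDR 0.00462), with 55.7 and 52.3 CPM in YAP6SA. *Tbl1x*, a subunit of the NCoR corepressor complex, rose by 0.65 on the log2 scale (FDR 0.0234). *Nrip1*, a corepressor of nuclear receptors also called RIP140, fell from 21.1 and 19.8 CPM to 11.5 and 8.74 CPM (-1.03, FDR 0.0125). *Perm1*, a muscle regulator induced by PGC-1 and ERR, fell by 0.63 on the log2 scale (FDR 0.0288), though 1 YAP5SA library (105 CPM) was above 1 GFP library (92.9 CPM). *Pprc1* (0.85) and *Nrip1* (-0.92) were not called without GFP replicate 2, nor was *Tbl1x* without GFP replicate 1 (0.43). *Perm1* was called in 3 of the 6 fits that leave out a library, and was lost without GFP replicate 1 (-0.72), GFP replicate 2 (-0.54) or YAP5SA replicate 2 (-0.35). *Tbl1x* (FDR 0.106) and *Perm1* (FDR 0.262) were not called without the batch term.

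Regulators of PGC-1 activity, such as AMP kinase, SIRT1 and the MEF2 factors, held 2 lower and 1 higher genes of 16, beside 9.18% and 12.8% of all genes tested. Without YAP5SA replicate 1 there were 6 lower and 2 higher, and without either GFP replicate there were 0 of both. The 3 were subunits of AMP kinase. *Prkab1* (-0.67, edgeR FDR 0.0112) and *Prkag1* (-0.65, FDR 0.0163) fell, and *Prkab2* (0.83, FDR 0.0164) rose from 63.5 and 51.1 CPM in GFP to 93.9 and 107 CPM in YAP5SA. Each was called in all 8 alternative fits. Without GFP replicate 1 the values were -0.73, -0.60 and 0.87, without GFP replicate 2 they were -0.60, -0.68 and 0.80, and none of the 3 was called in either. *Prkab2* was not called without YAP5SA replicate 2 (0.48). Nuclear regulators of mitochondrial biogenesis, such as *Nrf1*, *Tfam* and the mitochondrial polymerases, held 0 calls of 12 in the main edgeR fit. Of these, 3 had an unadjusted p under 0.05, and the median was -0.28. With no filter on low counts, or in limma-voom, 1 gene was called lower. Without YAP5SA replicate 1 there were 3 lower genes.

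Genes that move or convert thyroid hormone held 1 lower and 1 higher of 6 tested, beside 9.18% lower and 12.8% higher of all genes tested. Without YAP5SA replicate 1 there were 2 of each, without GFP replicate 1 there were 0 lower and 2 higher, and without GFP replicate 2, YAP5SA replicate 2 or the batch term 0 lower and 1 higher. *Slc7a5*, an amino acid carrier that also takes up thyroid hormone, rose from 2.94 and 1.70 CPM in GFP to 20.1 and 32.8 CPM in YAP5SA (log2 3.52, edgeR FDR 0.000677), with 4.48 and 2.79 CPM in YAP6SA. *Slc16a10*, a carrier of aromatic amino acids and thyroid hormone, fell from 52.2 and 38.1 CPM to 31.6 and 22.8 CPM (-0.73, FDR 0.0223), and was not called without GFP replicate 1 (-0.60), GFP replicate 2 (-0.84), YAP5SA replicate 2 (-0.60) or the batch term (FDR 0.0560). Among the deiodinase genes, named here after their values were seen, *Dio1* and *Dio3* had 0 counts in all libraries, where 3 counts in a library would be 0.153 to 0.199 CPM, and *Dio2* had 0.736 to 3.11 CPM.

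Of 13 tested genes known to be raised by thyroid hormone, 2 fell and 1 rose in YAP5SA OE CMs, beside 9.18% lower and 12.8% higher of all genes tested. Without YAP5SA replicate 1 these were 5 and 2, without GFP replicate 1 they were 1 and 0, without GFP replicate 2 they were 0 and 0, and without YAP5SA replicate 2 they were 2 and 0. *Hcn2*, a pacemaker channel, went from 148 and 174 CPM in GFP to 87.5 and 57.7 CPM (-1.15, edgeR FDR 0.00721), and *Adrb1*, the main beta-adrenergic receptor of CMs, from 44.2 and 45.5 CPM to 25.2 and 30.5 CPM (-0.69, FDR 0.0173). *Me1*, malic enzyme, rose by 0.93 on the log2 scale (FDR 0.0249). Of 6 known to be lowered by the hormone, 2 fell and 0 rose (0 fell without GFP replicate 2, 1 without YAP5SA replicate 2 or the batch term and 3 without YAP5SA replicate 1), namely *Pln* (-1.04, FDR 0.00784), the inhibitor of the calcium pump, and *Adcy5*, an adenylyl cyclase (-0.83, FDR 0.0290). Genes of both lists fell, and *Pln* and *Myh6* are also among the 8 CM markers. The main targets *Myh6* (-1.04, FDR 0.0625) and *Myh7* (-0.47, FDR 0.128), named here after their values were seen, missed the threshold. Without GFP replicate 2 the calls of *Hcn2* (-0.99), *Adrb1* (-0.76), *Me1* (1.01), *Pln* (-0.91) and *Adcy5* (-0.47) were lost. Those of *Adrb1* (-0.62) and *Me1* (0.86) were also lost without GFP replicate 1, and those of *Me1* (0.87) and *Adcy5* (-0.38) without YAP5SA replicate 2. *Adcy5* was not called without the batch term either (FDR 0.0662).

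Genes with the most similar log2 CPM over the 6 libraries were sought among 8038 genes whose mean log2 CPM reached 4. *Esrra* was most like *Gfm1* (r = 0.998), a mitochondrial elongation factor, and *Pex19* (0.997), a peroxisome biogenesis factor. *Thra* was closest to *Crtc1* (0.997) and *Tnni3* (0.996), the adult cardiac troponin I. *Ppargc1b* resembled *Proser2* (0.998) and *Golga4* (0.997), and *Thrb* resembled *Specc1l* (0.998) and *Mmaa* (0.994). *Ppara* went with *Tor1aip1* (0.992) and *Dmd* (0.990), the dystrophin gene. *Esrrg* was near to *Fbxo9* (0.994), *Esrrb* to *Zfp639* (0.999) and *Zfp407* (0.991), *Ppard* to *1110038F14Rik* (0.992) and *Reep5* (0.973), and *Rxra* to *Nup153* (0.974) and *Ddx50* (0.974). These 6 points share their groups and batches, so the values describe the libraries and no test was made.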

How the data were processed

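Poly-A RNA of PCM-1-bound nuclei was sequenced in 6 libraries, 2 per virus, 1 in each of 2 batches. The authors aligned reads with STAR to mm10, counted them per gene on the Ensembl 94 annotation of GRCm38 and deposited raw counts. Program versions are not given in the sources used here. The 4 table entries that name no gene held 22.0% to 23.4% of reads and were left out. Of the gene identifiers, 54495 were named with GENCODE M21. Counts were fitted in edgeR 4.0.16 (R 4.3.3) with TMM scaling and the quasi-likelihood test, in 1 model of the 6 libraries with terms for group and batch. Genes needed a median log2 CPM over 1 in at least 1 group. An FDR under 0.05 was the threshold, and intervals are 95%. Differences within a batch are of log2 CPM with a prior count of 2. DESeq2 1.42.0, limma 3.58.1 (voom), 2 other scalings, 2 other filters, the fit without the batch term, the fit of 4 libraries and each library left out were the alternatives. The fits were tested on simulated data.

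The replicate number is the batch number per the labels, so same-numbered libraries were paired through the batch term. Over 13323 genes, deviations from the group means correlated at 0.37 between GFP and YAP6SA, 0.099 between GFP and YAP5SA and 0.17 between YAP6SA and YAP5SA. No pair of replicates agreed within sampling noise. The members and lists were chosen with earlier results of these data known. All 10 members were named, and from each pathway list up to 4 genes with the largest change among those past the threshold in YAP5SA against GFP, changed the same way in both batches, provided their mean log2 CPM reached 1. Some genes that this rule or the search for similar genes names are not reported here. Shared exon bases come from GENCODE M21 and promoter windows from RefSeq. Figures were drawn with matplotlib 3.10.9.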

Additional observations from a re-analysis of the deposited data

Results flagged for a closer look

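For 4 of the 10 genes, YAP6SA lay above GFP in batch 1 and below it in batch 2. The log2 difference in batch 1 minus that in batch 2 was 1.99 for *Ppargc1a* (1.62 and -0.37), 1.02 for *Ppara* (0.33 and -0.70), 0.54 for *Thrb* (0.08 and -0.47) and 0.41 for *Esrrg* (0.06 and -0.35). With 1 library per virus and batch, this difference was not tested. For *Ppargc1a*, YAP6SA replicate 1 had 357 CPM, against 66.7 to 177 CPM in the other 5 libraries.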

How the results depend on the processing

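The 5 calls among the 10 genes in YAP5SA against GFP became 3 without the replicate block (the batch term), namely *Ppargc1b*, *Esrra* and *Thra*, and 2 to 8 with 1 library left out. Against YAP6SA, the 4 calls became 3 with DESeq2, 2 without the replicate block (*Ppargc1a* and *Ppargc1b*) and 1 to 6 with 1 library left out. YAP6SA against GFP gave 0 calls in all settings. Of the pathway genes, the 46 calls of YAP5SA against GFP became 33 without the block, 58 with no filter on low counts and 13 to 73 with 1 library left out. For YAP5SA against YAP6SA, the 38 calls became 17, 52 and 3 to 76 in the same order. For YAP6SA against GFP, the 0 calls became 2 with no filter, 11 with the 4 libraries compared and 0 to 7 with 1 library left out. Over all genes, YAP6SA against GFP gave 6 higher and 0 lower calls, 40 and 15 with DESeq2, 109 and 36 with no filter, 198 and 78 with the 4 libraries compared and 0 of either without the block, while YAP5SA gave 1708 and 1223 against GFP (1331 and 759 without the block) and 1199 and 757 against YAP6SA (851 and 301). Values that changed sign were uncalled ones of YAP6SA against GFP. With 1 library left out, *Ppara* ran from -0.84 to 0.47, *Esrrg* from -0.42 to 0.13, *Thrb* from -0.58 to 0.19 and *Thra* from -0.36 to 0.20, positive without GFP replicate 2 (and, for *Thra*, without YAP6SA replicate 1, 0.10). *Ppargc1a* ran from -0.14 without GFP replicate 1 to 1.42, with -0.12 without YAP6SA replicate 1. The cause was not tested, other than that fits with a library left out have 1 residual degree of freedom and take the lone library to vary like the others. Of the values of single genes under all alternatives, 669 kept their direction and side of the threshold, 82 lost the call, 12 gained it and 7 changed sign. The scaling of libraries moved the median log2 fold change of all genes by less than 0.01. Counting error bears most on *Esrrb*, with 18 to 142 counts. The counts and medians per pathway list with a library left out were added after the data were seen.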
